A study of Caenorhabditis elegans with 8 samples.

Results

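In this comparison, 3 libraries labelled as RNA interference (RNAi) against isoform A of vab-3 were set against 3 libraries labelled as RNAi against isoform C, which together make 6 of the 8 libraries of the series. The 6 were taken by their column names in the read-count table, and libraries with the same end number (1, 2 or 3) were treated as a pair. RNAi lowers a chosen transcript by way of matching double-stranded RNA, which worms can take up with food. All libraries came from whole hermaphrodites of the wild-type strain N2 (Caenorhabditis elegans) whose ages had been synchronized, with treatment beginning in young adults and collection at adult day 5. Worms given the empty vector L4440 supplied the other 2 libraries, numbered 1 and 3. These entered no test of the comparison apart from 1 alternative fit over all 8 libraries, and otherwise their levels are given only as background. What a number stands for, and whether cultures were separate, is not given in the labels, so p-values reflect how much these samples vary, which may be technical variation.

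vab-3 is the worm counterpart of the vertebrate gene Pax6, a transcription factor with a paired domain and a homeodomain. It acts in the head epidermis, in neurons and in the gonad, and a shorter product lacks the paired domain. Many genes described here build the cuticle, a matrix of collagens and cuticlins that the epidermis secretes. Larvae shed and rebuild the cuticle at each moult, and cuticle collagens, apical matrix proteins and hedgehog-related proteins rise and fall together in the moulting cycle. Adult worms do not moult. In RNA from whole worms, fewer cells of a type and less RNA per cell cannot be told apart.

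The 6 libraries held 30289733 to 43364047 counts each, and 14120 genes passed the filter on low counts. The level of a gene is given as counts per megaread of library size (CPM), corrected for library composition. A difference is given as the log2 difference, A-labelled minus C-labelled, with its standard error (SE). Along the leading principal axis (61.1% of the variance), A-labelled libraries 2 and 3 lay at 53.3 and 42.3 and the other 4 between -46.2 and -8.13. A-labelled library 1 lay at -15.0, between C-labelled libraries 2 and 3. Deviations from the group mean correlated across genes between the libraries of a pair, at 0.629 in pair 1, 0.473 in pair 2 and 0.241 in pair 3. A-labelled library 3 correlated somewhat more with C-labelled library 2 (0.288) than with its own number.

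The targeted gene did not separate the groups. vab-3 (WBGene00006870) stood at 4.45, 5.41 and 4.39 CPM in A-labelled libraries 1, 2 and 3 and at 4.14, 2.05 and 4.84 CPM in C-labelled libraries 1, 2 and 3. The groups overlapped, and C-labelled library 2 was the lowest of the 6. The log2 difference was 0.44 ± 0.33 (edgeR, adjusted p = 0.440), and it was -0.01 when pair 2 was left out. The controls stood at 2.21 and 2.12 CPM, so 5 of the 6 RNAi libraries lay above both. Counts are per gene and do not separate the isoforms. Because a gene under RNAi was not lower than in the controls, groups go by their labels (A-labelled, C-labelled) throughout, and each direction is one between labelled libraries.

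Of the relatives of vab-3 in the network of paired-box (PAX), sine oculis and eyes absent genes, 8 of 15 were tested. One passed as higher in the A-labelled libraries (12.5% of those tested, against 8.39% over all genes) and none as lower. That gene was pax-3, which encodes another paired-domain factor. It measured 0.549, 0.879 and 0.387 CPM against 0.211, 0.212 and 0.0577 CPM, so the groups did not overlap but the level was low throughout. Its log2 difference was 1.94 ± 0.41 (edgeR, adjusted p = 0.0161). eya-1, the eyes absent gene, had a difference of 0.36 ± 0.11, and the sine oculis-type gene unc-39 had 0.50 ± 0.17 (edgeR, adjusted p = 0.0690 and 0.0782).

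Across all genes, edgeR's quasi-likelihood test with the pair as a block called 1615 of 14120 genes at an adjusted p below 0.05, which is 11.4%. Of these, 1185 were higher in the A-labelled libraries (8.39% of genes tested) and 430 were lower (3.05%). The directions differed in size and in level. The higher genes had a median log2 difference of 0.85 and a median level of 5.15 CPM, and 501 of them differed at least 2-fold. The lower genes had a median of -0.23 and a median level of 79.1 CPM, and 15 of them differed at least 2-fold. The median over all genes tested was 0.02.

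**Figure D1:**
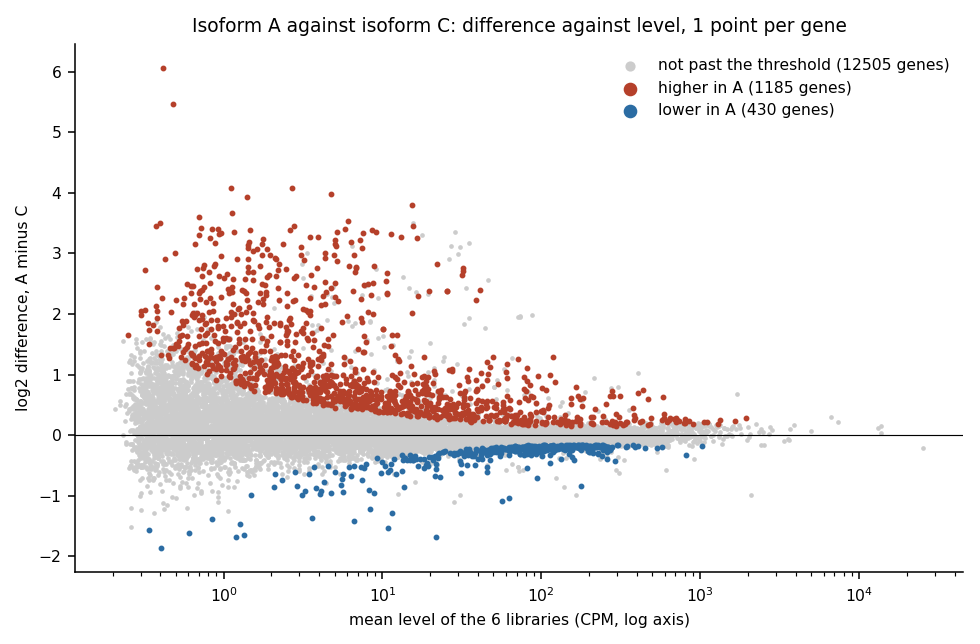
Log2 difference (A-labelled minus C-labelled) of each of 14120 genes against its mean level in the 6 libraries (CPM, log axis). The 1185 genes called higher (red) spread up to a difference of 6.06, while the 430 called lower (blue) lie mostly close to 0 at higher levels.

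These calls rest on the pairing. Without the block, edgeR called 1 gene, the cytochrome P450 gene cyp-34A4, and 2285 genes had an unadjusted p below 0.05. With the controls added to that fit, it called 6. DESeq2 called 1169 genes with the block and 574 without it. The pairing was set with the comparison, which was chosen with earlier results of these data known. The block removes the spread that same-numbered libraries share, so blocked p-values may be too favourable. With pair 2 left out, 910 genes were called. Without reference to pairs, all 3 A-labelled libraries lay above all 3 C-labelled libraries for 1744 genes (12.4% of those tested) and below them for 1786 (12.6%). Of the 1185 higher and 430 lower genes, 798 and 297 had groups that did not overlap. Below, every gene said to have risen or fallen passed with the block, and in edgeR over the 6 libraries every such gene apart from cyp-34A4 missed the threshold without it. Of the 574 genes that DESeq2 called without the block, 502 were among the 1615.

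Cuticle collagens rose as a large group. Of 133 tested out of 178 in the table, 70 were higher in the A-labelled libraries, none was lower, and 63 did not pass. The 70 are 52.6% of those tested, against 8.39% over all genes. The median log2 difference was 1.65, against 0.02 over all genes. In 54 of the 133 all A-labelled libraries lay above all C-labelled ones, as in 12.4% of all genes. Within pairs 1, 2 and 3 the median was 0.76, 1.51 and 2.27. Collagens come in families of similar sequence, and how reads shared by several genes were handled is not given in the sources used here, so single members are uncertain.

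All 6 furrow collagens rose and none had overlapping groups. These collagens form the circumferential furrows of the cuticle, and worms that lack one of them are short and fat. dpy-7 measured 3.01, 14.6 and 9.75 CPM in A-labelled libraries 1, 2 and 3 and 0.786, 1.62 and 1.12 CPM in C-labelled libraries 1, 2 and 3. The lowest A-labelled value, in library 1, was still above the highest C-labelled value, in library 2. Its difference was 2.87 ± 0.23 (edgeR, adjusted p = 3.26e-04). dpy-3 measured 2.69, 13.2 and 7.40 CPM against 0.695, 1.36 and 0.836 CPM, with a difference of 2.93 ± 0.25 (edgeR, adjusted p = 3.69e-04). dpy-8 measured 3.29, 21.0 and 16.9 CPM against 0.695, 2.12 and 1.07 CPM, with a difference of 3.34 ± 0.29 (edgeR, adjusted p = 0.00245). With pair 2 left out, dpy-8 had a difference of 3.32 and did not pass (edgeR with the block, adjusted p = 0.147). It passed without pair 1 and without pair 3. In dpy-7, dpy-3 and dpy-8 A-labelled library 1 was the lowest of its group and C-labelled library 1 the lowest of the other. dpy-2, dpy-9 and dpy-10, the remaining members, had differences of 2.80, 2.53 and 1.65. The controls stood at 1.63 and 1.72 CPM for dpy-7, between the groups.

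Body-shape collagens were among the genes with the largest differences. sqt-1 (chromosome II, 11336693 to 11337837, reverse strand, build WBcel235) encodes a collagen whose mutants are squat or roll. It measured 6.73, 47.1 and 32.9 CPM against 0.997, 3.48 and 1.499 CPM, with controls at 4.88 and 3.62 CPM. The groups did not overlap, and the difference of 3.81 ± 0.30 corresponds to 14.0-fold (edgeR, adjusted p = 0.00582). rol-8 measured 6.50, 46.7 and 33.6 CPM against 1.54, 3.60 and 2.08 CPM (difference 3.45 ± 0.45, edgeR, adjusted p = 0.0460). rol-6, known for mutants that roll, measured 3.56, 28.7 and 15.4 CPM against 0.997, 1.98 and 1.10 CPM (3.39 ± 0.48, edgeR, adjusted p = 0.0397). In both, the A-labelled libraries lay above every C-labelled library. The collagen gene col-90 had a difference of 3.27 ± 0.35.

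Collagens at a high level behaved differently in size. The 18 collagens at 50 CPM or more had a median difference of 0.73, and 14 of them rose. The 66 collagens between 5 and 50 CPM had a median of 2.12, and 34 rose, while of 49 below 5 CPM 22 rose with a median of 1.69. Among the highly expressed ones the library levels often overlapped between groups, and 2 of the 18 had groups that stood apart. col-42 measured 67.1, 99.5 and 42.4 CPM against 30.9, 41.0 and 15.9 CPM. Its lowest A-labelled value, in library 3, was close to the highest C-labelled value, in library 2, and within pairs the difference held at 1.29 ± 0.07 (edgeR, adjusted p = 1.41e-05). col-98 measured 61.4, 93.7 and 39.5 CPM against 30.5, 41.7 and 17.6 CPM, with a difference of 1.13 ± 0.06 (edgeR, adjusted p = 1.41e-05). col-122, chosen after its values were seen, reached 671, 1049 and 423 CPM against 411, 666 and 308 CPM (difference 0.62 ± 0.06). For col-42 and col-98 library 3 was the lowest of each group and library 2 the highest. By contrast col-10, at 14.2, 65.3 and 90.2 CPM against 2.66, 10.7 and 10.9 CPM, was lowest in library 1 of each group, and its difference was 2.76 ± 0.11 (edgeR, adjusted p = 1.41e-05).

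Of 11 collagens of the adult cuticle, 4 rose, among them rol-6 described above, and 1 of the 11 had groups that did not overlap. The 4 are 36.4% of the list, against 8.39% called higher over all genes. The list was the most uneven of the cuticle lists between pairs. Its median was -0.10, 0.98 and 1.90 in pairs 1, 2 and 3. col-19, a marker of the adult stage, measured 83.2, 154 and 78.1 CPM against 61.1, 89.8 and 49.7 CPM (difference 0.65 ± 0.07, edgeR, adjusted p = 6.59e-04). col-140 and col-119 had differences of 0.73 ± 0.08 and 0.74 ± 0.12 (edgeR, adjusted p = 0.00405 and 0.0354). Among the members that did not pass, bli-1 and bli-2, chosen after their values were seen, varied widely within the A-labelled group. bli-1, which encodes a collagen of the struts of the adult cuticle, measured 0.318, 6.42 and 28.6 CPM against 0.181, 1.67 and 1.18 CPM (edgeR, adjusted p = 0.170). bli-2, its partner in the struts, measured 0.173, 2.43 and 14.5 CPM against 0.363, 0.729 and 0.461 CPM (edgeR, adjusted p = 0.331). For both, A-labelled library 1 held a level like that of the C-labelled libraries and A-labelled library 3 the highest level.

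**Figure D2:**
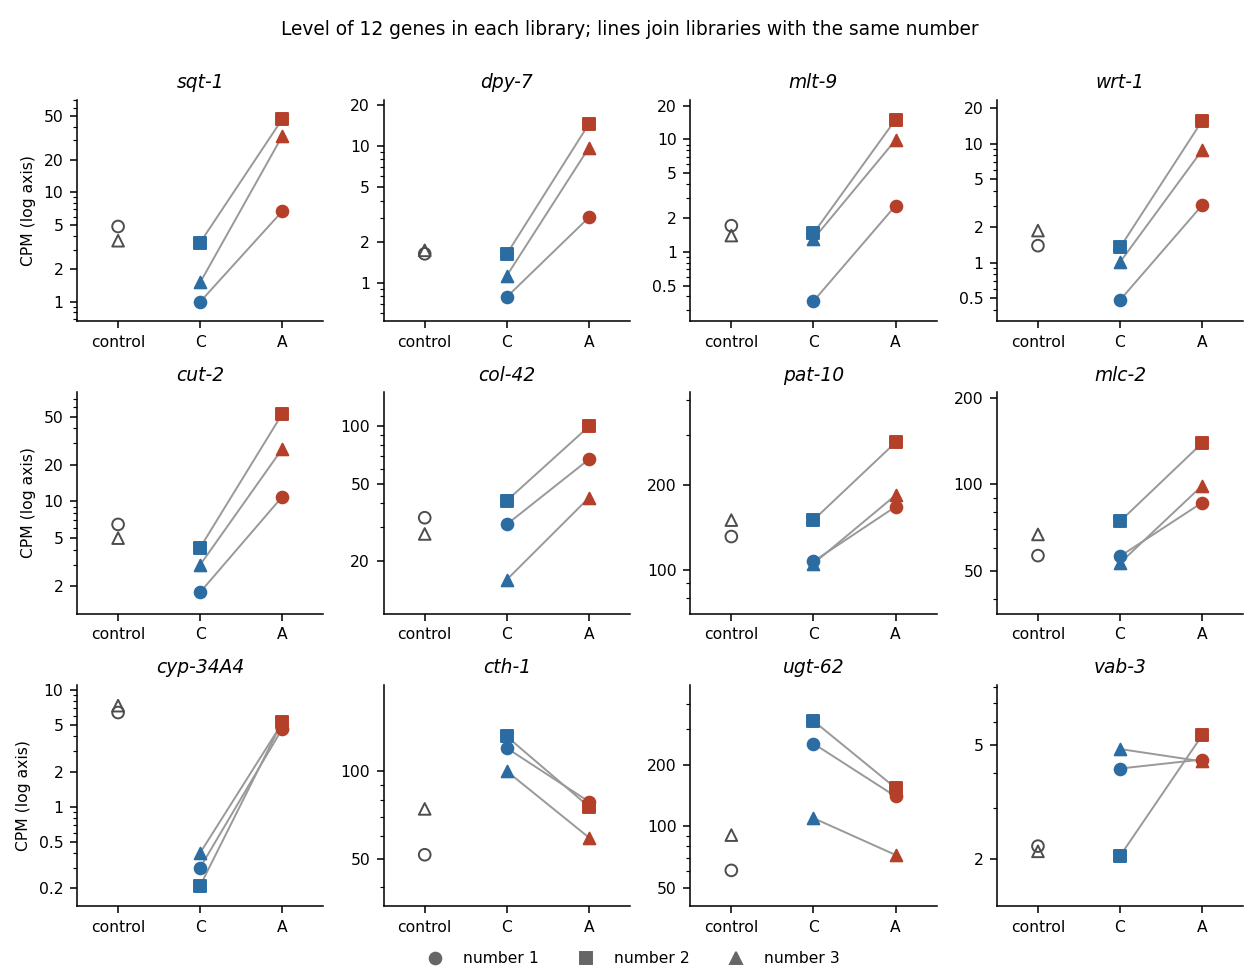
Level (CPM, log axis) of 12 genes in the 2 control, 3 C-labelled and 3 A-labelled libraries, with a marker shape for each library number and a line joining the C-labelled and A-labelled library of a pair. All 3 lines rise from C to A in the 8 genes of the upper rows and in cyp-34A4, they fall in cth-1 and ugt-62, and they cross in vab-3.

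Of 18 enzymes that modify collagens, 6 rose (33.3%, against 8.39% over all genes) and none fell, with a median of 0.21. nas-7, an astacin metalloprotease gene, measured 1.62, 2.84 and 2.09 CPM against 0.483, 1.13 and 0.865 CPM (difference 1.44 ± 0.22, edgeR, adjusted p = 0.00325). pdi-2, which encodes the protein disulfide isomerase subunit of prolyl 4-hydroxylase, measured 598, 698 and 677 CPM against 539, 539 and 490 CPM. Its groups did not overlap although the difference was 0.35 ± 0.06 (edgeR, adjusted p = 0.00801). The peroxidase gene mlt-7 had a difference of 0.67 ± 0.14, with overlapping groups.

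Apical matrix genes, whose products coat epithelia before and during cuticle assembly, rose in 12 of 24 cases and fell in none. The 12 are 50% of the list, against 8.39% over all genes, and the list median was 1.28. In 19 of the 24 the A-labelled libraries all lay above the C-labelled ones, against 12.4% of all genes. The lipocalin-related genes lpr-4, lpr-5 and lpr-6 had differences of 3.53 ± 0.30, 3.22 ± 0.35 and 3.28 ± 0.21 (edgeR, adjusted p = 0.00179, 0.0100 and 2.15e-05). lpr-4 measured 3.70, 17.2 and 13.0 CPM against 0.695, 1.01 and 1.07 CPM, with controls at 1.87 and 1.79 CPM. The cuticlin gene cut-2 measured 10.9, 52.6 and 27.1 CPM against 1.78, 4.16 and 3.00 CPM, a difference of 3.25 ± 0.20 (edgeR, adjusted p = 4.89e-04). In both genes the A-labelled values stood apart, with library 2 the highest. let-4, which encodes a leucine-rich repeat protein of epithelial surfaces, had a difference of 1.38 ± 0.17. noah-1 and noah-2, matrix genes named after their values were seen, did not pass (edgeR, adjusted p = 0.126 and 0.134). Even so their groups stood apart, with noah-1 at 42.4, 94.0 and 69.7 CPM against 21.7, 18.3 and 19.0 CPM.

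Of 36 genes tied to moulting, 12 rose (33.3%, against 8.39% over all genes) and none fell, with a median of 0.52. In 20 of the 36 the A-labelled libraries lay above all C-labelled ones, against 12.4% of all genes. The list shares some members with the hedgehog-related, patched-related and apical matrix lists. mlt-9 (chromosome X, 15101786 to 15107797, reverse strand), which is needed to complete the moult, measured 2.57, 15.0 and 9.88 CPM against 0.363, 1.46 and 1.30 CPM. The groups did not overlap, both groups were lowest in library 1, and the difference was 3.12 ± 0.17 (edgeR, adjusted p = 1.41e-05). qua-1, a hedgehog-related gene, measured 4.62, 25.1 and 20.6 CPM against 0.755, 2.28 and 1.67 CPM (difference 3.36 ± 0.18, edgeR, adjusted p = 1.56e-05). ptr-4, which encodes a patched-related membrane protein, measured 3.93, 17.8 and 14.1 CPM against 0.906, 2.42 and 1.70 CPM (2.78 ± 0.18, edgeR, adjusted p = 2.62e-05). The transcription factor genes nhr-25 and grh-1, named after their values were seen, rose by 0.93 and 0.85.

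Hedgehog-related and ground-like genes, many of which the epidermis uses to make secreted proteins, rose in 18 of 36 cases and fell in none. The 18 are 50% of the list, against 8.39% over all genes, and the list median was 1.36. Members of the warthog, groundhog and ground-like families were among the genes that rose. grl-7 measured 2.23, 17.8 and 11.8 CPM against 0.363, 1.41 and 1.12 CPM (difference 3.41 ± 0.19, edgeR, adjusted p = 1.41e-05). wrt-1 measured 3.03, 15.6 and 8.82 CPM against 0.483, 1.34 and 1.01 CPM (3.23 ± 0.19, edgeR, adjusted p = 1.56e-05). Its relative wrt-2, named after its values were seen, had a difference of 3.45 ± 0.21. In grl-7 and wrt-1 the A-labelled libraries all lay above the C-labelled ones, and the controls (1.55 and 1.23 CPM for grl-7) fell near the upper C-labelled values. Of 25 patched-related genes, 10 rose (40%, against 8.39% over all genes) and none fell, with a median of 0.56. ptr-16 had a difference of 2.35 ± 0.24 and ptr-11 one of 0.84 ± 0.14 (edgeR, adjusted p = 3.28e-04 and 0.00473).

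Other genes with large differences included glf-1, which encodes UDP-galactopyranose mutase, an enzyme needed for the galactofuranose of surface glycans. It measured 2.31, 15.9 and 10.01 CPM against 0.453, 1.34 and 0.836 CPM (difference 3.36 ± 0.22, edgeR, adjusted p = 5.68e-05). bus-8, a glycosyltransferase gene that affects the cuticle surface, was named after its values were seen and had a difference of 3.16 ± 0.24. The gene with the smallest p, F30H5.3, measured 5.81, 38.4 and 17.6 CPM against 0.725, 3.15 and 2.08 CPM (3.32 ± 0.15, edgeR, adjusted p = 9.97e-06). In all 3 genes A-labelled library 2 was the highest of the 6.

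Epidermal antimicrobial peptide genes rose in 15 of 32 cases (46.9%, against 8.39% over all genes) and fell in none, with a median of 0.52. nlp-24 measured 7.05, 23.0 and 16.6 CPM against 3.08, 6.58 and 3.86 CPM (difference 1.75 ± 0.16, edgeR, adjusted p = 5.61e-04). The fungus-induced peptide relative fipr-1 had a difference of 1.82 ± 0.24 and did not overlap either. nlp-29, a reporter of epidermal infection and wounding, measured 39.1, 25.1 and 25.3 CPM against 28.5, 19.3 and 16.1 CPM. Its groups overlapped and library 1 was the highest of each group (difference 0.51 ± 0.08, edgeR, adjusted p = 0.00338).

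Body wall muscle genes rose in 20 of 37 cases (54.1%, against 8.39% over all genes) and fell in none. Their median was 0.79, and 28 of the 37 had A-labelled libraries above all C-labelled ones, against 12.4% of all genes. pat-10, which encodes troponin C, measured 168, 282 and 184 CPM against 108, 151 and 106 CPM. The groups did not overlap, library 2 was the highest of each, and the difference was 0.80 ± 0.06 (edgeR, adjusted p = 6.02e-05). mlc-2, a myosin light chain gene, measured 86.4, 139 and 99.0 CPM against 56.2, 74.4 and 53.3 CPM (0.83 ± 0.06, edgeR, adjusted p = 1.09e-04). unc-27, a troponin I gene, measured 113, 168 and 124 CPM against 78.8, 95.8 and 67.7 CPM (0.75 ± 0.07, edgeR, adjusted p = 5.99e-04). Both genes showed the same order of libraries within the A-labelled group. hlh-1, which encodes the worm MyoD factor and was named after its values were seen, rose by 1.53.

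Of 25 pharynx genes, 16 rose (64%, against 8.39% over all genes) and none fell, with a median of 1.28. Members of the abu and phat families, which encode secreted proteins of the pharyngeal lining and glands, made up most of those that rose. abu-12 measured 1.01, 4.598 and 4.41 CPM against 0.332, 0.776 and 0.432 CPM (difference 2.64 ± 0.29, edgeR, adjusted p = 6.08e-04). abu-8 and pqn-74 had differences of 1.53 ± 0.18 and 1.85 ± 0.20 (edgeR, adjusted p = 8.19e-04 and 5.24e-04). The groups of all 3 stood apart. pha-4, which encodes the FoxA factor that specifies the pharynx, was named after its values were seen and rose by 0.85.

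**Figure D3:**
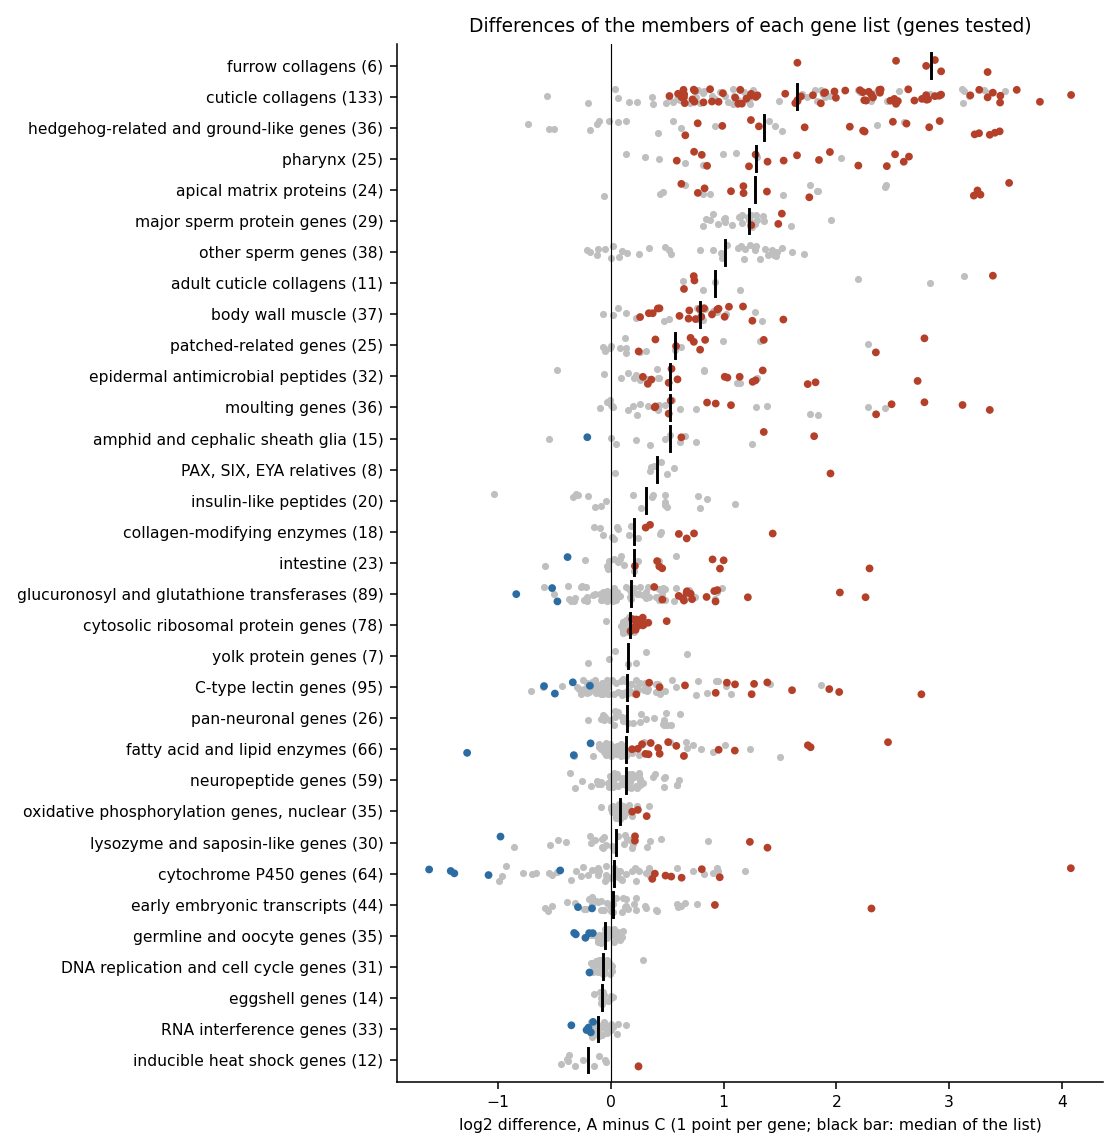
Log2 difference (A-labelled minus C-labelled) of every tested member of 33 gene lists, ordered by the median of the list (black bar), with members past the threshold in red (higher) or blue (lower) and the others in grey. Cuticle, hedgehog-related, pharynx and muscle lists lie to the right, while lists of the germline, the cell cycle and RNAi lie close to 0 on the left side.

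The edgeR fit over all 8 libraries without the block called 6 genes, and such a fit favours genes that vary little within a group. cyp-34A4 lies on the forward strand of chromosome V from 3950023 to 3952097, where the reference annotation calls it dach-1. It belongs to the cytochrome P450 enzymes, which oxidize foreign and endogenous lipophilic compounds. It measured 4.65, 5.34 and 5.21 CPM in A-labelled libraries 1, 2 and 3 and 0.302, 0.212 and 0.404 CPM in C-labelled libraries 1, 2 and 3. The controls stood at 6.40 and 7.33 CPM, so the C-labelled libraries were the low ones. The difference was 4.08 ± 0.24, or 16.9-fold (edgeR, adjusted p = 1.56e-05), and it passed without the block (edgeR, adjusted p = 0.00615). Among the 6 fits without a block that each left out 1 library, it missed the threshold in the one without C-labelled library 1 (edgeR, adjusted p = 0.114).

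The other 5 genes called in the fit over 8 libraries without the block were named after their values were seen. The neighbouring genes chil-12 and kin-30, a chitinase-like and a kinase gene on chromosome V, held 2 counts and 1 count over all C-labelled libraries. The ratio of A-labelled to C-labelled levels was 53.0 for chil-12 (95% exact counting interval 14.3 to 444) and 87.9 for kin-30 (15.3 to 3510), and the intervals cover counting error only. C32H11.4 measured 3.96, 5.85 and 6.45 CPM against 1.21, 1.32 and 1.47 CPM, with controls at 5.65 and 7.99 CPM. F48E3.2 went the other way, at 13.6, 9.16 and 8.51 CPM against 30.2, 34.8 and 34.5 CPM, with controls at 7.55 and 8.66 CPM. In these 4 genes the C-labelled libraries lay apart from both the A-labelled and the control libraries. The collagen gene col-150 was different, at 1.94, 2.20 and 1.83 CPM against 0.514, 0.423 and 0.490 CPM, with the controls at 0.693 and 0.697 CPM near the C-labelled level.

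Among cytochrome P450 genes as a whole, 8 of 64 rose and 5 fell, with a median of 0.03, so no common direction was seen. Those counts are 12.5% and 7.81% of the list, against 8.39% and 3.05% over all genes. cyp-25A1 measured 12.7, 15.4 and 11.9 CPM against 7.61, 9.45 and 9.08 CPM (difference 0.63 ± 0.11, edgeR, adjusted p = 0.00696). In the opposite direction, cyp-13A7 measured 4.05, 3.99 and 1.83 CPM against 9.31, 16.9 and 3.40 CPM (-1.42 ± 0.22, edgeR, adjusted p = 0.0107). cyp-33C8 measured 47.8, 34.1 and 25.6 CPM against 85.0, 95.7 and 51.1 CPM (-1.09 ± 0.13, edgeR, adjusted p = 0.0123). The A-labelled libraries lay below all C-labelled ones for cyp-33C8, while the groups overlapped for cyp-13A7.

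Among called genes of at least 5 CPM with a gene-class symbol, those with the lowest differences had roles in metabolism, transport and sensing, among others. lipl-1, a lysosomal lipase gene induced by fasting, measured 6.21, 4.90 and 8.54 CPM against 10.5, 17.0 and 21.5 CPM (difference -1.28 ± 0.19, edgeR, adjusted p = 0.0102). str-7, of a family of chemoreceptor genes, measured 7.46, 3.52 and 4.05 CPM against 14.9, 11.2 and 8.62 CPM (-1.22 ± 0.14, edgeR, adjusted p = 7.27e-04). The groups of both stood apart. ugt-62, a glucuronosyltransferase gene, measured 140, 154 and 72.3 CPM against 255, 330.1 and 110 CPM. Its groups overlapped because library 3 was low in both, and the difference was -0.84 ± 0.09 (edgeR, adjusted p = 0.00342).

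cth-1 (chromosome V, 16100680 to 16102750, forward strand) encodes cystathionine gamma-lyase, which makes cysteine from cystathionine. It measured 78.7, 75.6 and 59.3 CPM against 120.1, 132 and 100.04 CPM, and all A-labelled libraries lay below all C-labelled ones. Its difference was -0.70 ± 0.05 (edgeR, adjusted p = 5.74e-05), and the controls stood at 51.8 and 74.3 CPM. The lipid-binding protein gene lbp-8, the C-type lectin gene clec-218 and the ABC transporter gene abt-4 had differences of -0.73 ± 0.14, -0.59 ± 0.10 and -0.54 ± 0.06. The mucin-like gene mul-1, the F-box gene fbxa-145 and the haem transporter gene hrg-1 had -0.73 ± 0.14, -0.60 ± 0.15 and -0.54 ± 0.13. Among these 6, the groups overlapped for mul-1 and hrg-1.

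Of 66 lipid enzymes 16 rose and 3 fell, with a median of 0.14. Shares called higher and lower were 24.2% and 4.55%, against 8.39% and 3.05% over all genes. acox-2, an acyl-CoA oxidase gene of peroxisomes, measured 11.01, 19.6 and 16.0 CPM against 4.08, 4.33 and 5.45 CPM (difference 1.75 ± 0.16, edgeR, adjusted p = 3.34e-04). acdh-2 and acdh-1, acyl-CoA dehydrogenase genes, had differences of 1.77 ± 0.17 and 0.65 ± 0.07. Of 89 glucuronosyl and glutathione transferases, which conjugate xenobiotics, 16 rose and 3 fell, with a median of 0.18. Here the share called higher was 18%, against 8.39% over all genes. The share called lower was 3.37%, near the 3.05% over all genes. ugt-12, ugt-13 and gst-13 rose by 0.93, 1.21 and 0.64.

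Of 23 intestinal genes, 8 rose (34.8%, against 8.39% over all genes) and 1 fell (4.35%, against 3.05%). The 3 with the smallest p encode intermediate filaments, with ifp-1 at 2.69, 10.3 and 8.07 CPM against 0.846, 1.60 and 1.70 CPM (difference 2.29 ± 0.20, edgeR, adjusted p = 1.49e-04). ifd-1 and ifb-2 had differences of 1.00 ± 0.17 and 0.90 ± 0.12. Among 7 yolk genes edgeR called none, 4 had an unadjusted p below 0.05, and DESeq2 and limma-voom with the block called 2 and 1. Of 95 C-type lectin genes, 14 rose and 4 fell, led by clec-180, clec-67 and clec-10 with differences of 2.75, 1.94 and 1.39. Those counts are 14.7% and 4.21% of the list, against 8.39% and 3.05% over all genes, and the list median was 0.14. Of 30 lysozyme and saposin-like genes, 4 rose and 1 fell, with spp-4, spp-13 and lys-1 at 1.23, 1.39 and 0.21. Those counts are 13.3% and 3.33% of the list, not far from the shares over all genes, and the list median was 0.05.

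Lists of highly expressed housekeeping and germline genes showed small differences. Of 78 ribosomal protein genes tested, 21 rose (26.9%, against 8.39% over all genes) and none fell. The median was 0.17, with within-pair medians of 0.15, 0.30 and 0.07. rpl-11.2 measured 96.2, 159 and 136 CPM against 78.4, 100.01 and 98.9 CPM (difference 0.49 ± 0.07, edgeR, adjusted p = 0.00628). rpl-26 and rpl-39 had differences of 0.29 ± 0.05 and 0.24 ± 0.05, and the groups of all 3 overlapped. Of 35 oxidative phosphorylation genes, 3 rose, namely ucr-2.2 and ucr-2.1 of complex III and mev-1 of complex II, with differences between 0.19 and 0.32. That is 8.57% of the list, near the 8.39% over all genes, so the count is no result about the list. The differences themselves were small and positive in 33 of the 35, with a median of 0.08. In 8 of the 35 the A-labelled libraries all lay above the C-labelled ones, against 12.4% of all genes.

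Germline and oocyte genes fell in 5 of 35 cases (14.3%, against 3.05% over all genes) and rose in none, with a median of -0.05. In 10 of the 35 the A-labelled libraries all lay below the C-labelled ones, against 12.6% of all genes. nos-2, a nanos relative in the germline, measured 119, 83.6 and 99.3 CPM against 131, 115 and 133 CPM (difference -0.33 ± 0.06, edgeR, adjusted p = 0.0133). pie-1, which keeps germline blastomeres from transcribing somatic genes, measured 129, 116 and 131 CPM against 149.8, 148 and 148 CPM (-0.23 ± 0.05, edgeR, adjusted p = 0.0160). Its groups stood apart by a small margin. Genes of the RNAi machinery also fell in 5 of 33 cases (15.2%, against 3.05% over all genes) and rose in none. The list median was -0.11, and in 14 of the 33 the A-labelled libraries all lay below the C-labelled ones. The genes that fell included mut-7, mut-2 and sid-2, the last of which takes up double-stranded RNA from the gut. Their differences were -0.22 ± 0.05, -0.20 ± 0.05 and -0.35 ± 0.10. Among 31 genes of the cell cycle and DNA synthesis, the cyclin B gene cyb-1 alone passed, at -0.19 ± 0.05 (edgeR, adjusted p = 0.0425). That is 3.23% of the list, near the 3.05% called lower over all genes, so the count is no result about the list. Only 3 of the 31 differences were positive, 10 genes had an unadjusted p below 0.05 in edgeR, and the list median was -0.07. In 13 of the 31 the A-labelled libraries all lay below the C-labelled ones, against 12.6% of all genes. Of 14 eggshell genes none passed in edgeR or DESeq2 (lowest edgeR adjusted p = 0.0752, 1 with an unadjusted p below 0.05). Of 44 early embryonic transcripts 2 rose and 2 fell, 4.55% each, against 8.39% higher and 3.05% lower over all genes.

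Sperm genes differed mainly in pair 3. The median of 29 major sperm protein genes, which encode the cytoskeletal protein of crawling sperm, was 0.33, 0.24 and 2.37 in pairs 1, 2 and 3, and that of 38 other sperm genes was -0.02, 0.18 and 2.11. Summed over the 29 genes, the level was 8.90, 47.2 and 87.4 CPM in A-labelled libraries 1, 2 and 3 and 6.62, 38.9 and 15.4 CPM in C-labelled libraries 1, 2 and 3. The sums of the groups overlapped, and the controls stood at 9.15 and 8.99 CPM. Of the major sperm protein genes 3 (msp-152, msp-33 and msp-3) passed as higher in edgeR, which is 10.3% of the list against 8.39% over all genes, and DESeq2 and limma-voom with the block called 1 and 2. In the list of other sperm genes, no gene passed in edgeR (lowest adjusted p = 0.0516, 11 with an unadjusted p below 0.05) or DESeq2, while limma-voom called 1. Major sperm protein genes share almost the same sequence, so single members are uncertain.

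**Figure D4:**
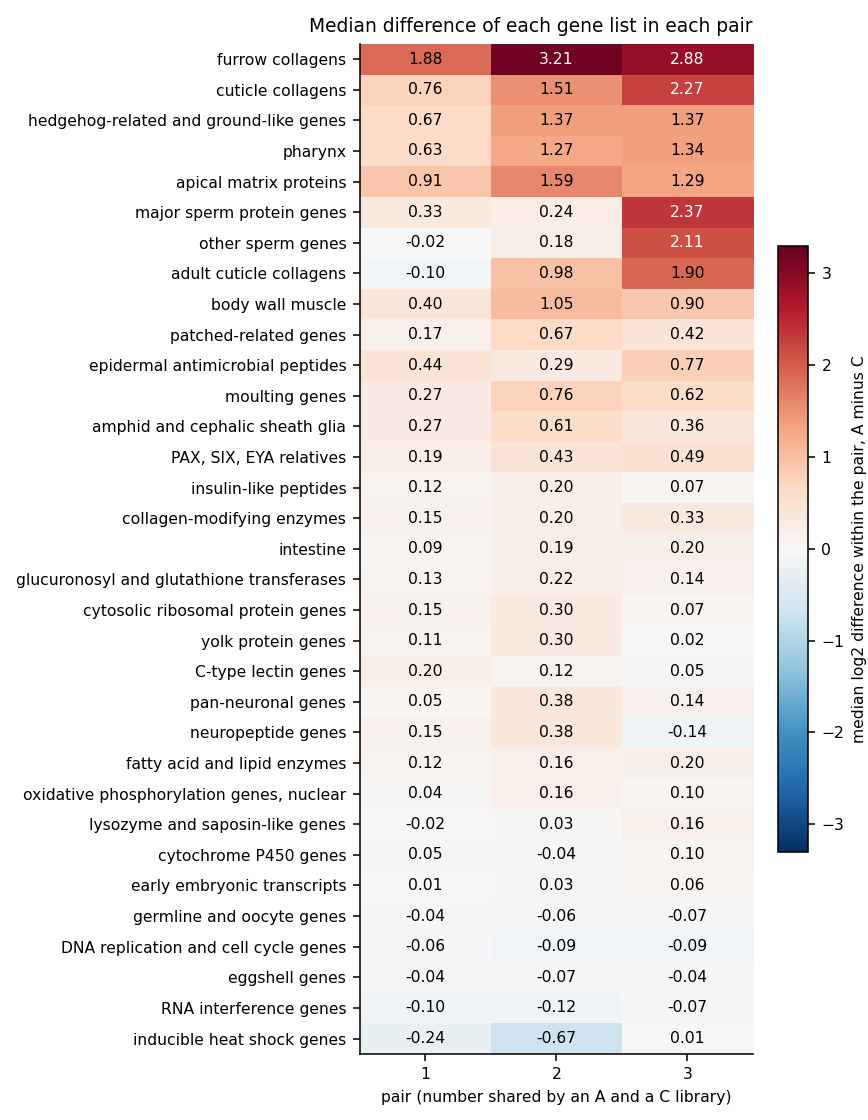
Median log2 difference (A-labelled minus C-labelled) of each gene list within pairs 1, 2 and 3, with the value written in each cell. Furrow collagens stand at 1.88, 3.21 and 2.88, while the sperm lists stand above 2 in pair 3 only.

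Neuronal lists gave no calls in edgeR. The median of 26 pan-neuronal genes, which serve synapses and excitability, was 0.14, the lowest adjusted p was 0.0562, and 6 had an unadjusted p below 0.05, while DESeq2 and limma-voom with the block called 1 each. The median of 59 neuropeptide genes was 0.14 (lowest edgeR adjusted p = 0.0923, 3 with an unadjusted p below 0.05), with 0 calls by DESeq2 and limma-voom. For 20 insulin-like peptide genes it was 0.32 (lowest edgeR adjusted p = 0.133, 2 with an unadjusted p below 0.05), and DESeq2 with the block called 1. In a list of 15 genes of the amphid and cephalic sheath glia, which wrap sensory endings in the head, 3 rose and 1 fell. As shares these are 20% and 6.67%, against 8.39% and 3.05% over all genes. dex-1, a matrix gene that anchors dendrite tips, measured 8.35, 10.3 and 8.87 CPM against 5.71, 6.47 and 5.85 CPM (difference 0.62 ± 0.11, edgeR, adjusted p = 0.00736). daf-6 and ptr-10, both patched-related genes, had differences of 1.803 ± 0.325 and 1.36 ± 0.25.

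Small heat shock genes were high in the libraries numbered 1. The small heat shock gene hsp-16.11 measured 33.0, 10.1 and 9.36 CPM in A-labelled libraries 1, 2 and 3 and 46.3, 18.0 and 9.60 CPM in C-labelled libraries 1, 2 and 3. Control libraries 1 and 3 stood at 28.3 and 6.30 CPM, so library 1 was the highest in each of the 3 groups. Its difference was -0.44 ± 0.14 and did not pass (edgeR, adjusted p = 0.0752). hsp-16.48 was likewise highest in library 1 of each group, with a difference of -0.37 ± 0.12, and did not pass. In a list of 12 heat shock genes 1 passed, hsp-43, as higher by 0.24 ± 0.06 (edgeR, adjusted p = 0.0313). That is 8.33% of the list, near the 8.39% over all genes, so the count is no result about the list. The list median was -0.20, and 2 of the 12 differences were positive.

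Pair 1 gave smaller differences than pairs 2 and 3 for most of the groups that rose. Over the 1185 higher genes the median difference was 0.57, 1.03 and 0.82 in pairs 1, 2 and 3, and over the 430 lower genes it was -0.19, -0.30 and -0.23. These genes were chosen on the same differences, so the values are a description. Across all 14120 genes, which are not independent replicates, the differences of pairs 1 and 2 correlated at 0.592, those of pairs 1 and 3 at 0.463, and those of pairs 2 and 3 at 0.633.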

How the data were processed

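Whole-worm RNA was sequenced. Per the labels' protocols, total RNA was taken up in QIAzol and turned into libraries with Illumina's TruSeq v2 kit for RNA, which does not mark strand, so reads of a gene and an antisense partner cannot be separated. The submitters' processing notes list genome build WBcel235 and the tools TopHat2 2.1.0, featureCounts 1.5.0 and bcl2fastq 1.8.4. No source used here gives the annotation release, the filters or the handling of multiply matching reads. The authors deposited whole-number counts for 46739 genes. The deposited RPM values equal each count scaled to its column total (largest difference 4.91e-11), and the deposited RPKM values were not used.

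The counts of 6 libraries went into edgeR 4.0.16 (R 4.3.3), after its expression filter by group and TMM scaling, with a robust quasi-likelihood F test of the group and the library number as a block. P-values were adjusted by the Benjamini-Hochberg method over all 14120 genes, with a threshold of 0.05. For the SE, the size of the log2 difference was divided by the root of its F statistic. CPM levels use TMM factors over all 8 libraries. Within-pair differences use log2 CPM with a prior count of 2. The script was run on simulated counts with known changes, which does not check whether the numbers pair the libraries. Alternatives were DESeq2 1.42.0, limma-voom (limma 3.58.1), other scaling and filters, no block, and leaving out pairs or single libraries. The pairing by number was set with the comparison. All 3 correlations between same-numbered libraries exceeded 0.1, which is a check on the data and not on the labels. The correlation of A-labelled library 3 with C-labelled library 2 (0.288) also exceeded 0.1, so the check does not single out the pairs. No libraries were merged, since within each group the chi-square per degree of freedom was at least 17.6, above sampling noise.

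The comparison, the gene lists and the naming rule were chosen with earlier results of these data known. By the rule, vab-3 was named, then the 12 largest and the 12 smallest log2 differences among called genes of at least 5 CPM with a gene-class symbol, then the 3 smallest p-values in each list with a called member. Genes named beyond it were chosen after their values were seen. They include F30H5.3, col-122, bli-1, bli-2, dpy-2, dpy-9 and dpy-10. No sequence is shown.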

Additional observations from a re-analysis of the deposited data

How the results depend on the processing

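The counts of called genes depended most on the pairing. Without the replicate block, 1 gene was called (1 higher and 0 lower in the A-labelled libraries), with all 8 libraries and no block 6 (5 and 1), and with DESeq2 without the block 574 (497 and 77). Without a filter on low counts 2481 were called (1626 and 855 lower), and at a mean of at least 5 CPM 776 (599 and 177), where fewer genes were tested. DESeq2 with the block called 1169 genes (860 and 309), 1018 of them among the 1615, and 309 lower genes were fewer than the 430 in the edgeR fit. Other scaling factors gave 1151 higher and 532 lower genes. With one pair left out, 910 to 1554 genes were called (756 to 1152 higher, 154 to 402 lower). Named genes that had passed with all pairs then missed the threshold in 12, 24 and 19 cases without pairs 1, 2 and 3. With single libraries left out and no block, 0 to 576 were called (0 to 551 higher, 0 to 25 lower). The 576 arose without A-labelled library 1 and the 0 without C-labelled library 1, where 1519 genes had an unadjusted p below 0.05. The cause was not tested. In every fit named here with the block, all genes of the 1615 that were tested kept their direction.

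The difference of vab-3 was -0.014 without pair 2 and between that value and 0.745 when pairs were left out. Those of hsp-16.11 and hsp-16.48, which did not pass, were 0.345 and 0.459 without C-labelled library 1 and no block. No list changed the sign of its median under the other scaling factors. The medians of the heat shock, neuropeptide, cytochrome P450, lysozyme and early embryonic lists changed sign under at least 2 alternatives.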

Other observations

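Further gene groups, picked after their values were seen and therefore not tested as groups, held several called genes, where 8.39% of all genes tested were called higher. Of 15 tested genes of the mec class, which act in touch sensation, 5 rose and none fell. mec-17, which encodes a tubulin acetyltransferase of touch receptor neurons, measured 3.82, 8.22 and 5.73 CPM in A-labelled libraries 1, 2 and 3 and 2.45, 3.22 and 3.14 CPM in C-labelled libraries 1, 2 and 3. The tubulin genes mec-12 and mec-7 had differences of 0.88 ± 0.18 and 0.81 ± 0.20, and the extracellular matrix genes mec-5 and mec-1 of 0.98 ± 0.16 and 0.74 ± 0.21. All 5 had groups that did not overlap, as had 798 of the 1185 genes called higher. These genes were named because they passed, so their separation is a description. The median difference over the 15 mec genes was 0.44.

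Of 20 vha genes, which encode subunits of the proton pump that acidifies organelles, 8 rose and none fell, with vha-3, vha-11 and vha-5 at 0.44, 0.31 and 0.56. Of 21 innexin genes, which form gap junctions, 5 rose, with inx-13 and inx-5 at 0.50 and 0.72. Of 11 aquaporin genes 5 rose, and aqp-2 measured 32.0, 52.6 and 27.6 CPM against 18.7, 18.0 and 15.2 CPM. On the lower side, the chromodomain gene cec-7 measured 144, 113 and 144 CPM against 169, 159 and 173 CPM (difference -0.31 ± 0.05, edgeR, adjusted p = 0.00661).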
